A study of Mus musculus with 9 samples.

Results

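RNA bound to tagged ribosomes of striatal neurons that carry the D1 dopamine receptor was compared between mice with a deletion of the neurotrophin receptor TrkB that showed stereotypy, a repetitive motor behavior, and control mice. The libraries of each group were taken by their labels, 3 with stereotypy and 3 controls, out of 9 in the study. The comparison was chosen with earlier results of these data known. Genes entered the comparison where at least 3 of these 6 libraries reached 1 CPM (a gene's reads scaled to a fixed library total), which 13462 of 47729 gene identifiers did.

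The controls carried D1-Cre and the RiboTag (genotype D1-Cre-RT), and the stereotypy group carried floxed TrkB as well (genotype D1-Cre-flTrkB-RT). All were of the C57BL/6 background and were sampled from dorsal striatum at postnatal day 28. RiboTag is an allele from which Cre switches on a ribosomal protein with an HA tag, so that polyribosomes of the Cre-expressing cells can be precipitated and their RNA sequenced. Cre and the tag were thus present in both groups, and of the groups compared only that with stereotypy carried floxed TrkB. The study also holds a TrkB-deleted group without stereotypy, which is not part of this comparison. The deletion and the behavior therefore differ together here and cannot be told apart, and "with stereotypy" below names the group. A group with the floxed allele and no Cre was not analysed here. Cre depends on D1 receptor gene expression, which is not limited to the direct-pathway neurons of the striatum. The labels call the libraries of a group biological triplicates and give no sex, litter or batch, and no RNA from before the precipitation was analysed here, so enrichment was not measured.

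TrkB, encoded by Ntrk2, is the receptor tyrosine kinase for brain-derived neurotrophic factor (BDNF). Its activation recruits Shc, Frs2 and phospholipase C-gamma adaptors and starts the Ras-ERK, PI3K-Akt and calcium arms of signalling, and ERK in turn induces transcription factors and its own inhibitors of the Sprouty, Spred and dual-specificity phosphatase families. Medium spiny neurons make little BDNF themselves and receive most of it from cortical axons. D1 medium spiny neurons are the output neurons of the direct pathway, which promotes movement.

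Some libraries stood apart before any gene was compared. Control libraries held 32615356 to 36535817 reads and stereotypy libraries 27103152 to 31117135, and log2 levels of replicates correlated across genes at 0.979 to 0.987 in the controls and 0.989 to 0.991 with stereotypy (Pearson). Stereotypy replicate 3 had 109 CPM of the X-inactivation RNA Xist and 0.959 CPM of the Y-linked gene Ddx3y, while the 5 other libraries had at most 4.21 CPM of Xist and at least 64.9 CPM of Ddx3y, and stereotypy replicate 2, at 4.21 CPM of Xist, had more of it than the other 4. Control replicate 3 had the highest levels of genes of indirect-pathway (D2) neurons, with the D2 markers summing to 1434 CPM against 443.5 and 630.3 CPM in the other controls and 259.0 to 424.5 CPM with stereotypy. It also had the highest level of the activity-induced gene Arc, 409 CPM against 52.6 to 144 CPM elsewhere. Summed markers of astrocytes (453.7 to 561.4 CPM in controls, 644.6 to 672.5 with stereotypy), oligodendrocyte precursors (10.7 to 20.6, then 21.7 to 30.6), microglia (18.2 to 37.1, then 39.8 to 50.2) and vascular cells (13 to 35, then 44.4 to 103.5) were higher in every stereotypy library than in every control, and those of D1 neurons overlapped (1902 to 2576 and 2349 to 2446 CPM).

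Ntrk2 itself checked the labels. This gene (ENSMUSG00000055254, GRCm38 chromosome 13, 58806569 to 59133970, plus strand) had 319, 385 and 487 CPM in control replicates 1, 2 and 3, an order kept for all values below, and 34.3, 43.9 and 40.7 CPM in the stereotypy replicates. Every stereotypy library was far below every control, and the mean fell from 397 ± 84.8 to 39.6 ± 4.85 CPM (SD, n = 3 each), which leaves 9.98% of the control level. The log2 change was -3.28 (SE 0.19, adjusted p = 3.81e-05, limma on log2(CPM + 1) with Benjamini-Hochberg adjustment over all genes tested, as for every adjusted p below), and it was the largest fall of any gene tested. These values are per gene and do not separate the exons that the deletion removes from the rest of the transcript.

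Of the 13462 genes, 714 (5.3%) passed an adjusted p of 0.05, of which 500 (3.71%) were higher and 214 (1.59%) lower with stereotypy. At an unadjusted p under 0.05 there were 3253. The TrkB-deleted group without stereotypy entered the estimate of the spread in this fit. With the 6 compared libraries alone 326 genes were called (218 higher, 108 lower), 319 of them among the 714. In all 714 the 3 stereotypy libraries lay entirely above or below the 3 controls, as they did in 27.8% of all genes tested (18% above, 9.75% below), so separation of the groups alone was common here. The higher genes had a median control level of 11.84 CPM, a median transcript length of 4810 bases and 47.28% GC; the lower genes had 72.44 CPM, 3176 bases and 55.33% GC, against 3378 bases and 49.64% GC for all genes tested. The excess of higher over lower calls depended on scaling. Higher genes made up 70% of calls in the values as deposited and 52.9% after median-of-ratios rescaling (389 higher, 346 lower). They made up 50.7% after removal of a trend with GC content and length (341 higher, 331 lower). On recovered reads they were 50.3% with edgeR (332 higher, 328 lower) and 47.5% with DESeq2 (719 higher, 796 lower). Most changes were modest, with a median size of 0.73 on the log2 scale, 163 genes past 2-fold (109 higher, 54 lower) and 7 past 4-fold.

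**Figure D1:**
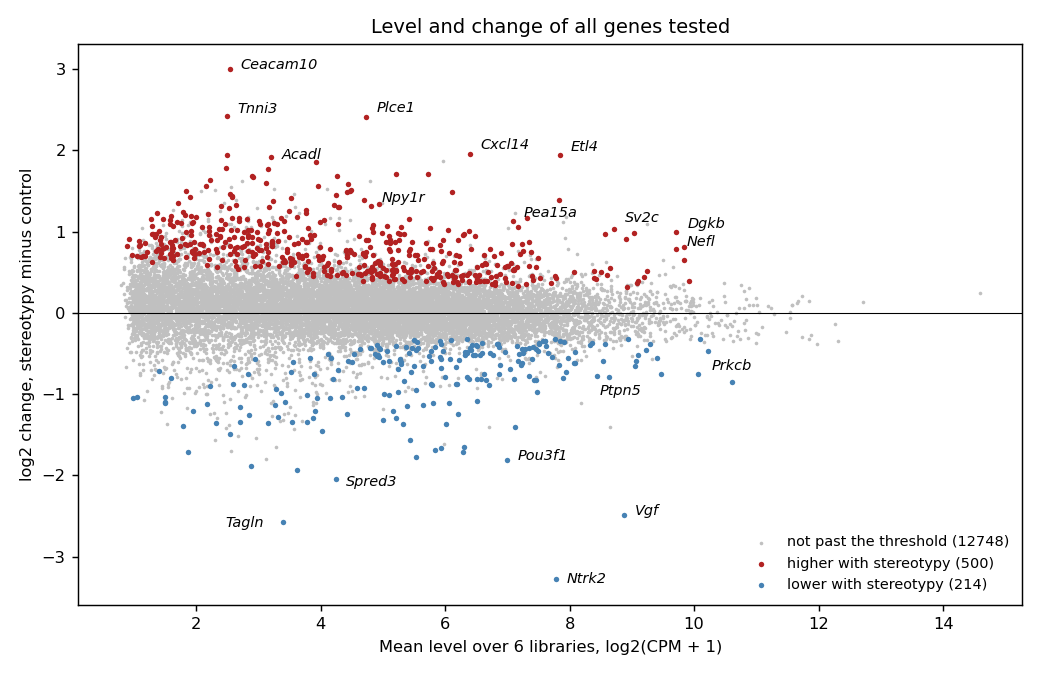
Each of the 13462 genes is a point, with its mean level over 6 libraries in log2(CPM + 1) on the horizontal axis and its log2 change, stereotypy minus control, on the vertical axis. Red points are the 500 higher and blue points the 214 lower genes past an adjusted p of 0.05; Ntrk2 is the lowest point at -3.28, and many of the red points lie at low levels.

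The number of calls rested on single libraries. Without stereotypy replicate 2, 78 higher and 46 lower genes were called, 0.921% of those tested. Without stereotypy replicate 1 there were 285 calls in all, without control replicate 3 there were 382, and leaving out control replicates 1 or 2 gave 654 and 496. Without stereotypy replicate 3, the library that differed in Xist and Ddx3y, 250 genes were called (180 higher, 70 lower), 234 of them among the 714. A fit with the mean log2 level of 51 glial and vascular markers as a covariate called 5 genes (2 higher, 3 lower; 1337 at an unadjusted p under 0.05). Those means were 2.32 to 2.68 in the controls and 3.04 to 3.41 with stereotypy, without overlap, so the level of glial RNA and the genotype with stereotypy cannot be told apart here. In the following, a call is said to hold where it passed in all 6 fits that leave out 1 library. These fits keep the group without stereotypy in the estimate of the spread. In all, 111 genes (73 higher, 38 lower, 15.5% of the calls) held, and edgeR called all 111 as well.

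**Figure D2:**
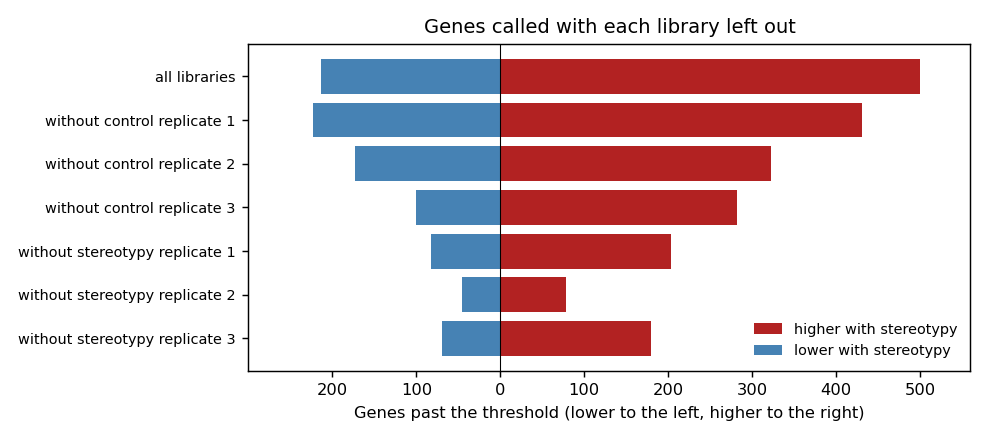
Bars give the number of genes past an adjusted p of 0.05, higher with stereotypy to the right in red and lower to the left in blue, in the fit to all libraries and with each of the 6 compared libraries left out. The shortest bars, 78 higher and 46 lower, belong to the fit without stereotypy replicate 2.

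After Ntrk2, the largest falls among protein-coding genes of at least 5 CPM were in a smooth-muscle actin-binding protein, a granin-like secreted protein, an ERK inhibitor and an activin antagonist. Tagln, which encodes the actin-binding protein transgelin, had 13.7, 9.59 and 28.3 CPM in controls and 2.22, 2.02 and 1.22 CPM with stereotypy (log2 change -2.57, SE 0.31, adjusted p = 0.00232). Fmnl1, a formin that elongates actin filaments, went from 94.8, 108 and 154 to 32.3, 31.2 and 41.7 CPM (-1.72, SE 0.17, adjusted p = 6.46e-04). Vat1l, a relative of a synaptic vesicle membrane protein, went from 103, 112 and 139 to 32.4, 35.8 and 42.7 CPM (-1.65, SE 0.14, adjusted p = 2.95e-04). For all 3 the lowest control was more than 2 times the highest stereotypy library, and the calls held.

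Most of the largest rises began from low control levels. Plce1, phospholipase C-epsilon, which is activated by Ras-family GTPases, had 7.31, 8.40 and 6.29 CPM in controls and 36.1, 52.8 and 41.8 CPM with stereotypy (log2 change 2.41, SE 0.16, adjusted p = 6.33e-05). Cxcl14, a chemokine made by some neurons, rose from 23.1, 28.7 and 53.8 to 136, 145 and 113 CPM (1.95, SE 0.25, adjusted p = 0.00315). Neither gene's groups came near each other, and both calls held. Etl4, a scaffold protein also known as Skt, had 121, 45.1 and 122 CPM in controls and 207, 483 and 392 CPM with stereotypy (1.95, SE 0.37, adjusted p = 0.018). Its call was lost without stereotypy replicate 2 or 3 (adjusted p up to 0.083).

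Further genes among the 15 largest rises were Acadl, Cldn23 (a claudin), Unc13b, Kirrel (an immunoglobulin-type adhesion protein), Rreb1 (a zinc finger factor that responds to Ras), Slco5a1 (a solute carrier), Fam126a (part of a lipid kinase complex that is needed for myelination), Parvb (an integrin-linked adaptor), Ntn1, Gpr149 and Stxbp3, with log2 changes of 1.5 to 1.92. The calls of Unc13b, Rreb1 and Gpr149 were lost without stereotypy replicate 2 (adjusted p of 0.055, 0.053 and 0.07), and the other 8 held. Cldn23 went from 3.23, 3.25 and 2.58 to 12.4, 15.2 and 10.7 CPM, and Slco5a1 from 3.01, 3.59 and 3.25 to 11.7, 14.9 and 9.74 CPM, and the lowest stereotypy library of each was well above its highest control. Stxbp3, a partner of syntaxin in membrane fusion, went from 8.18, 5.91 and 3.37 to 20.8, 24.3 and 23 CPM, and its pseudogene Stxbp3-ps from 1.86, 2.09 and 1.32 to 5.48, 5.72 and 4.94 CPM. The copies can share reads, so their separate levels are uncertain.

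**Figure D3:**
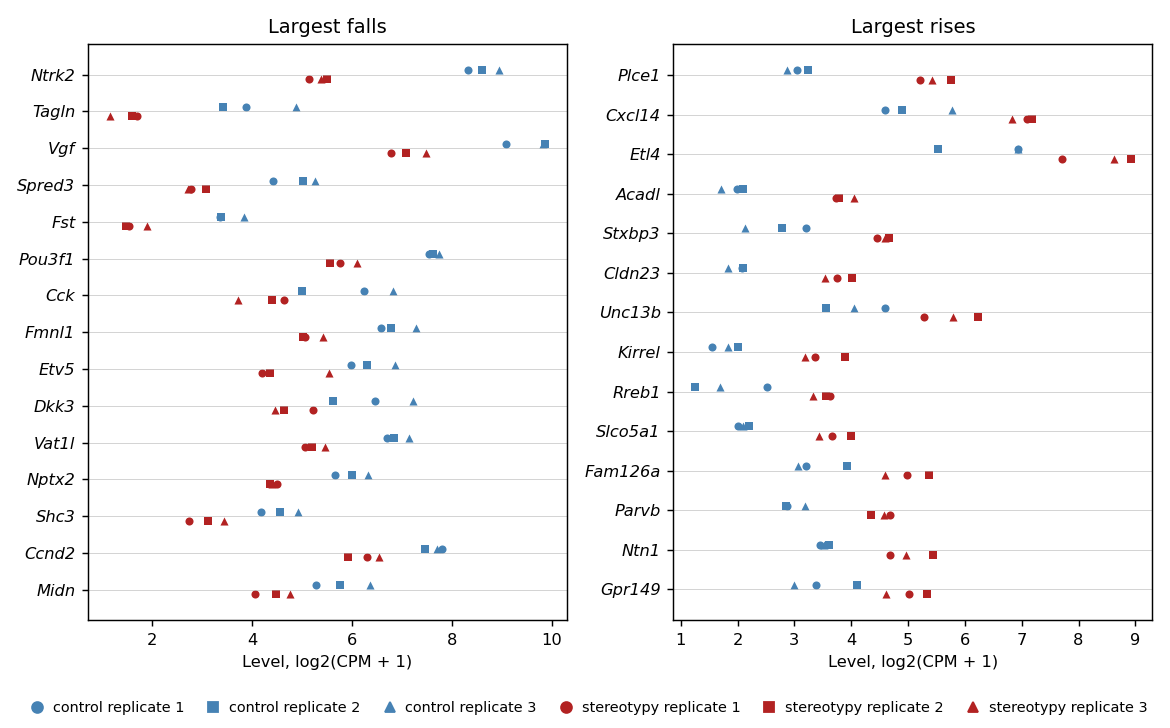
Levels in log2(CPM + 1) of the 15 genes with the largest falls (left) and 14 of the 15 with the largest rises (right) are shown for each library, blue for controls and red for stereotypy, with the replicate number given by the marker shape. In every row the red points lie wholly on one side of the blue ones, and rows such as Cck, Etl4 and Dkk3 have a wide spread within a group.

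Among 21 tested neurotrophin receptors, ligands and adaptors, 4 were lower and 0 higher, with a median log2 change of -0.15 against 0.05 over all genes tested. Without control replicate 3 that median was 0.01. Without Ntrk2, the deleted gene, 3 remain, of which 2 are described. Shc3, the neuronal Shc adaptor that links Trk receptors to Ras, had 17, 22.4 and 29 CPM in controls and 5.62, 7.68 and 9.78 CPM with stereotypy (-1.45, SE 0.23, adjusted p = 0.00924), and this call held. Sorcs2, a sortilin-family co-receptor for pro-neurotrophins, fell from 93.2, 110 and 102 to 70.8, 70.0 and 71.4 CPM (-0.51, SE 0.09, adjusted p = 0.0107), which was lost without stereotypy replicate 2. The ligand itself, Bdnf, had 9.25, 2.12 and 13.7 CPM in controls and 1.86, 1.99 and 0.590 CPM with stereotypy, and with controls this far apart its change of -1.70 (SE 0.61) had an adjusted p of 0.125. Ntrk3, the sister receptor TrkC, had 292, 342 and 303 CPM in controls and 247, 260 and 322 CPM with stereotypy, which overlap (adjusted p = 0.336).

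Feedback inhibitors of receptor tyrosine kinase signalling were among the genes that fell. Of 7 Sprouty and Spred genes, 3 were lower and 0 higher, all 7 had an estimate below 0, and the median log2 change was -1.09 (all genes tested 0.05). In 6 the stereotypy libraries all lay below the controls, against 9.75% of all genes tested. Spred3 had 20.4, 31.3 and 37.0 CPM in controls and 5.80, 7.46 and 5.57 CPM with stereotypy (-2.04, SE 0.21, adjusted p = 9.05e-04). Spry2 had 116, 132 and 122 CPM in controls and 55.0, 51.7 and 66.7 CPM with stereotypy (-1.09, SE 0.15, adjusted p = 0.0054). In both genes the 3 stereotypy libraries were tightly grouped below the controls, and both calls held. Spred2 fell from 57.4, 63.0 and 80.9 to 23.3, 22.9 and 48.5 CPM (-1.14, SE 0.24, adjusted p = 0.0281). Spred1, which did not pass, had 247, 220 and 257 CPM in controls and 109, 119 and 213 CPM with stereotypy (-0.77, SE 0.20, adjusted p = 0.0511). In Spred1 and Spred2 stereotypy replicate 3 was the highest of its group and nearest the controls; the call of Spred2 was lost without control replicate 3 or stereotypy replicate 1 or 2 (adjusted p up to 0.11).

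Other readouts of ERK signalling gave fewer calls than the Sprouty and Spred genes, to be read beside the 1.59% of all genes called lower. In 5 of 9 dual-specificity phosphatases and 3 of 10 ETS factors the stereotypy libraries all lay below the controls. That was so in 9.75% of all genes tested. Of 9 dual-specificity phosphatases that switch off MAP kinases, 2 were lower, with a median of -0.35: Dusp5, a nuclear ERK phosphatase, had 9.91, 12.1 and 19.6 CPM in controls and 4.98, 5.91 and 6.27 CPM with stereotypy (-1.09, SE 0.26, adjusted p = 0.036), and Dusp4, which was tested only through the controls, was close to the filter at 0.680 to 4.75 CPM over the 6 libraries (-1.09, SE 0.25, adjusted p = 0.0349). Both were called in 1 of the 6 fits that leave out a library. Dusp6, the cytoplasmic ERK phosphatase, did not pass, with 67.3, 58.1 and 107 CPM in controls and 28.1, 39.3 and 56 CPM with stereotypy (adjusted p = 0.0788). Of 10 ETS factors 1 was lower: Etv5, a factor of the Pea3 group that receptor tyrosine kinases induce, had 61.6, 77.7 and 115 CPM in controls and 17.3, 19.6 and 45.1 CPM with stereotypy (-1.68, SE 0.32, adjusted p = 0.0178). Its call was lost without stereotypy replicate 1 or 2 (adjusted p up to 0.084).

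Calls in the cascade upstream of these targets are to be read beside the 3.71% of all genes called higher and 1.59% called lower. Of 28 genes of the ERK cascade and Ras regulators, 2 were higher and 0 lower, with a median of 0.17 that became -0.05 after removal of the trend with GC content and length. Pea15a, a phosphoprotein that holds ERK in the cytoplasm, had 79.1, 77.8 and 95.6 CPM in controls and 189, 176 and 191 CPM with stereotypy (1.14, SE 0.10, adjusted p = 2.95e-04), and the call held. Pea15a is also abundant in astrocytes, whose summed markers were higher in every stereotypy library, as given above; their part in this change was not tested. Of 28 PI3K, Akt and mTOR genes 1 was lower, Irs2, the insulin receptor substrate, from 47.6, 84.5 and 78.2 to 32.6, 34.5 and 43.7 CPM (-0.87, SE 0.19, adjusted p = 0.0309), kept in 2 of the 6 fits that leave out a library.

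Several activity-induced genes were widely spread among the controls. Of 22 immediate early transcription factors 1 was higher and 0 lower, with a median of -0.25 that was 0.00 without control replicate 3. The one called, Myc, had 2.24, 1.98 and 1.75 CPM in controls and 4.80, 4.47 and 3.91 CPM with stereotypy (0.85, SE 0.16, adjusted p = 0.0182), a call lost without stereotypy replicate 1 or 2. Egr1 had 542, 465 and 814 CPM in controls and 333, 384 and 535 CPM with stereotypy, which overlap (adjusted p = 0.144). Of 29 activity-induced effectors 2 were lower and 0 higher, with a median of -0.18. Nptx2, a secreted pentraxin that clusters AMPA receptors at synapses, had 49.6, 63.0 and 78.6 CPM in controls and 21.7, 19.6 and 20.2 CPM with stereotypy (-1.57, SE 0.31, adjusted p = 0.021). Midn, a nuclear protein of induced protein turnover, fell from 38.0, 52.8 and 81.4 to 15.5, 21.3 and 26 CPM (-1.37, SE 0.25, adjusted p = 0.0152). Nptx2 was called in 2 and Midn in 4 of the 6 fits that leave out a library, and in both genes control replicate 3 was the highest library.

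Some secreted proteins of dense-core vesicles and 1 of their processing enzymes fell. Of 21 granins, prohormone processing enzymes and neuropeptides, 4 were lower and 0 higher, in 17 no call was made, and the median was -0.33. In 9 the stereotypy libraries all lay below the controls, against 9.75% of all genes tested. Vgf (ENSMUSG00000037428, GRCm38 chromosome 5, 137026392 to 137033351), a granin-like precursor whose transcription is induced by BDNF and nerve growth factor, had 542, 930 and 904 CPM in controls and 109, 134 and 176 CPM with stereotypy (-2.48, SE 0.22, adjusted p = 4.52e-04). The lowest control was more than 3 times the highest stereotypy library, and this call held. Scg2, secretogranin 2, fell from 484, 446 and 565 to 240, 290 and 340 CPM (-0.79, SE 0.19, adjusted p = 0.04). Cck, the cholecystokinin precursor, which cortical neurons express strongly, had 74.0, 30.8 and 112 CPM in controls and 23.8, 19.99 and 12.1 CPM with stereotypy (-1.77, SE 0.41, adjusted p = 0.0348). Pam, the enzyme that amidates peptides, fell from 225, 242 and 236 to 142, 187 and 171 CPM (-0.50, SE 0.10, adjusted p = 0.0251). Of these 3, Scg2 was called in 0, Cck in 1 and Pam in 2 of the 6 fits that leave out a library. Markers of cortical excitatory neurons had a median of -0.78 with 0 of 10 called by limma (4 at an unadjusted p under 0.05, 1 lower by edgeR), and their summed level overlapped between groups (2765 to 4050 and 2729 to 3654 CPM); their part in the value of Cck was not tested.

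Promoter sequence was read for called genes of some of the lists. Those of Scg2 and Dusp5, textbook targets of CREB and of serum response factor, are shown. They were the only ones read with a full cAMP response element or a CArG box. The windows run from 250 bases before to 50 bases after a start site (RefSeq, GRCm38.p6), and motifs were searched on both strands. The Scg2 window (chr1:79439977-79440276, minus strand) holds 1 cAMP response element, TGACGTCA, in capitals below, and the Dusp5 window (chr19:53528895-53529194, plus strand) holds 2 adjacent CArG boxes, the binding motif of serum response factor, in capitals.
Scg2: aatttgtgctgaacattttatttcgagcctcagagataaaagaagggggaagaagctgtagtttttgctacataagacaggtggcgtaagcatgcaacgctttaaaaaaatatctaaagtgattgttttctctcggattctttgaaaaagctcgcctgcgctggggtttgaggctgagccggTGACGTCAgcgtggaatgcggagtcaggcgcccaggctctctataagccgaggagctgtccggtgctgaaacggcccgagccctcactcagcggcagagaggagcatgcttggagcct
Dusp5: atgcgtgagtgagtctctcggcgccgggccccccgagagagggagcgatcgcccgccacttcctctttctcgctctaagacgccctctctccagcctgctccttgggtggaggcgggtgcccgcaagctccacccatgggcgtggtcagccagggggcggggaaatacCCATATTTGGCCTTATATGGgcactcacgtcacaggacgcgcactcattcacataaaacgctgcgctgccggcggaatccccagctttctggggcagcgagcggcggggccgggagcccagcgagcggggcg
Over the 12559 windows of tested genes, 3.08% hold the cAMP response element and 1.2% a CArG box. Among the 219 windows of lower genes the shares were 3.65% and 1.37%, and among the 500 of higher genes 2.6% and 1.4%. The ETS site CCGGAAG was in 16.7% of all windows, 7.8% of those of higher and 9.59% of those of lower genes, in the same order the EGR site GCGNGGGCG in 10.9%, 11.6% and 16%, the AP-1 site TGANTCA in 4.62%, 8.4% and 5.94%, and TGACG, a part of the cAMP response element, in 31.1%, 25.2% and 28.3%. The differences were not tested. The windows of the lower genes Spry2, Spred2, Spred3, Etv5, Pam, Cck, Ciart, Dbp, Nr1d1 and Ntrk2 hold neither the full cAMP response element nor a CArG box.

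Genes that mark the neuron type gave 1 call among those of D1 neurons and 0 among those of D2 neurons. Of 10 D1 neuron markers 1 was higher, Gpr149, an orphan receptor, from 9.36, 16.2 and 6.96 to 31.5, 39.1 and 23.5 CPM (1.5, SE 0.26, adjusted p = 0.0131), a call lost without stereotypy replicate 2. The D1 receptor gene Drd1 had 866, 865 and 684 CPM in controls and 864, 841 and 955 CPM with stereotypy, which overlap (adjusted p = 0.497). Of 8 D2 neuron markers limma called 0 (2 had an unadjusted p under 0.05, and edgeR called 1 lower), with a median of -0.50 that became -0.08 without control replicate 3. Penk, the enkephalin precursor of D2 neurons, had 320, 458 and 1013 CPM in controls and 189, 253 and 168 CPM with stereotypy (-1.40, SE 0.36, adjusted p = 0.0502). The libraries are precipitates of tagged ribosomes, not whole tissue. In them fewer cells of a type, less RNA per cell and, for D2 genes, less carry-over of untagged RNA cannot be told apart.

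Of 26 genes shared by medium spiny neurons 1 was higher and 1 lower. Strn, striatin, rose from 539, 459 and 499 to 659, 733 and 754 CPM (0.52, SE 0.09, adjusted p = 0.0112), a call lost without stereotypy replicate 2. Ptpn5, the striatal phosphatase STEP that dephosphorylates ERK and glutamate receptors, fell from 819, 1036 and 820 to 550, 475 and 561 CPM (-0.75, SE 0.15, adjusted p = 0.025), a call kept in 2 of the 6 fits. Of 16 matrix and striosome markers, Lypd1 rose (119, 93.9 and 107, then 161, 201 and 216 CPM; adjusted p = 0.0288) and Id4 fell (132, 124.4 and 127, then 85.7, 105 and 103 CPM; adjusted p = 0.04). They were called in 2 and 0 of the 6 fits, and no other member of either list was called.

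Among 30 transcription factors of medium spiny neurons 1 was higher and 1 lower. Pou3f1, a POU-domain factor also called Oct6, had 185, 194 and 211 CPM in controls and 53.4, 46.2 and 67.8 CPM with stereotypy (-1.82, SE 0.15, adjusted p = 2.95e-04). Every stereotypy library was far below every control, the fall was 3.53-fold and the call held. Ikzf2, Helios, had 0.739, 0.537 and 0.491 CPM in controls and 1.72, 1.45 and 1.55 CPM with stereotypy (adjusted p = 0.0438); it met the filter only through the stereotypy libraries and was called in 0 of the 6 fits that leave out a library. Bcl11b, or CTIP2, which specifies these neurons, had 966, 792 and 828 CPM in controls and 909, 1066 and 1017 CPM with stereotypy, which overlap (adjusted p = 0.249).

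Second-messenger enzymes were called in both directions. Of 25 phospholipase C and diacylglycerol kinase genes 2 were higher, Plce1 and Dgkb, and 1 was lower. Over all genes tested 3.71% were called higher and 1.59% lower. Dgkb, which turns diacylglycerol into phosphatidic acid, rose from 694, 399 and 579 to 760, 1246 and 1360 CPM (1.0, SE 0.23, adjusted p = 0.0334), and Plcxd1 fell from 39.5, 49.3 and 46.4 to 32.0, 29.2 and 29.1 CPM (-0.56, SE 0.11, adjusted p = 0.0216). Dgkb was called in 2 and Plcxd1 in 3 of the 6 fits. Prkcb, protein kinase C beta, which diacylglycerol activates, fell from 1265, 1465 and 1269 to 821, 740 and 817 CPM (-0.75, SE 0.10, adjusted p = 0.00352), and this call held. Of 35 dopamine, cAMP and protein kinase A genes 1 was higher, the phosphodiesterase Pde1c, from 27.8, 27.0 and 21.6 to 34.6, 52.8 and 61.0 CPM (adjusted p = 0.0303), kept in 3 of the 6 fits.

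Rgs20, which accelerates GTP hydrolysis by inhibitory G proteins, was the only one of 17 tested regulators of G-protein signalling called. It fell from 71.2, 78.1 and 76.8 to 28.4, 34.1 and 42.4 CPM (-1.10, SE 0.13, adjusted p = 0.00232), and this held. Of 21 calcium/calmodulin-dependent kinase genes 2 were lower and 0 higher. In 7 the stereotypy libraries all lay below the controls and in 1 above, against 9.75% and 18% of all genes tested. Camk1g fell from 30.7, 80.0 and 46.9 to 17.3, 20.4 and 20.3 CPM (-1.30, SE 0.28, adjusted p = 0.0303), and Camkk1, its activating kinase, from 186, 309 and 168 to 148, 103 and 114 CPM (-0.82, SE 0.20, adjusted p = 0.0422). Control replicate 2 was the highest library for both, and Camk1g was called in 2 and Camkk1 in 1 of the 6 fits. Camk2a, the abundant postsynaptic kinase, did not pass (2814, 3149 and 3247, then 3628, 3262 and 3330 CPM; adjusted p = 0.364).

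Circadian clock genes were lower in 4 and higher in 1 of 21 cases, with a median of -0.15. In 9 the stereotypy libraries all lay below the controls, against 9.75% of all genes tested. Ciart, a repressor of the CLOCK-BMAL1 activator, had 30.1, 71.3 and 35.9 CPM in controls and 17.5, 15.9 and 16.1 CPM with stereotypy (-1.32, SE 0.26, adjusted p = 0.0194). Per2, a core repressor, fell from 39.8, 53.8 and 53.1 to 16.8, 17.4 and 29.1 CPM (-1.21, SE 0.21, adjusted p = 0.0121). Dbp, an output activator, fell from 314, 378 and 278 to 242, 197 and 189 CPM (-0.62, SE 0.15, adjusted p = 0.04), and Nr1d1, or Rev-erb alpha, from 162, 216 and 166 to 132, 101 and 120 CPM (adjusted p = 0.028). Nfil3, a repressor that binds the same sites as Dbp, rose from 4.54, 4.16 and 6.35 to 10.5, 11.4 and 10.4 CPM (0.98, SE 0.15, adjusted p = 0.00754). Of these 5 calls that of Nfil3 held, Per2 was lost without stereotypy replicate 2 (adjusted p = 0.067), and the others were kept in 1 to 3 of the 6 fits. The labels give no hour of sampling, so time of day was not tested.

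The clock activator binds the E-box CACGTG, and the Ciart window (chr3:95882179-95882478, minus strand) holds it 3 times, in capitals.
Ciart: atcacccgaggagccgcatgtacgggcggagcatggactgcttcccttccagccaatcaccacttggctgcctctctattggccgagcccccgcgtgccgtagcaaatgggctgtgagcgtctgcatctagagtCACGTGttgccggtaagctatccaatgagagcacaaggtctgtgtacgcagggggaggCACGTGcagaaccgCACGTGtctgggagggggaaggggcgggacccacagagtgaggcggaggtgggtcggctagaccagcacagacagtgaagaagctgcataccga
The E-box was found in 9.87% of all windows, 13.2% of those of lower genes and 8% of those of higher genes. The windows of Dbp and Nr1d1 hold none within these 300 bases.

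Of 10 D-type cyclins, partner kinases and inhibitors 2 were lower and 0 higher. Ccnd2, cyclin D2, an ERK-responsive cyclin that neurons also express, fell from 222, 175 and 208 to 77.6, 59.5 and 91.5 CPM (-1.41, SE 0.16, adjusted p = 0.00161), and the call held. E2f1, a transcription factor that the cyclin D kinases release from Rb, fell from 18.4, 21.5 and 18.7 to 12, 9.16 and 6.38 CPM (-1.05, SE 0.21, adjusted p = 0.0244), a call kept in 3 of the 6 fits. Both genes had their 3 control values close together.

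Axon guidance genes gave 3 higher and 2 lower calls among 65 (3.71% and 1.59% of all genes tested). Ntn1, netrin 1, had 9.91, 11.2 and 10.5 CPM in controls and 24.7, 42.5 and 30.2 CPM with stereotypy (1.51, SE 0.18, adjusted p = 0.00217). Sema6a, a transmembrane semaphorin, rose from 3.94, 3.65 and 5.15 to 12.2, 14.9 and 10.9 CPM (1.38, SE 0.20, adjusted p = 0.0054), and Sema3a, a secreted one, from 26.9, 20.1 and 27.1 to 46.4, 49.4 and 52.1 CPM (0.98, SE 0.12, adjusted p = 0.00272). All 3 rises held, with each stereotypy library well above each control. The 2 falls were small: Efna3, an ephrin, by 1.39-fold and Sema6b by 1.28-fold, with adjusted p of 0.045 and 0.0396 and calls that were kept in 1 and 0 of the 6 fits.

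Receptors for neuropeptide Y were higher. Npy1r, the Y1 receptor, had 16.9, 14.5 and 13.7 CPM in controls and 43.8, 35.4 and 37.8 CPM with stereotypy (1.32, SE 0.12, adjusted p = 4.52e-04). Npy5r, the Y5 receptor, whose gene lies beside that of Y1, had 5.23, 5.35 and 5.24 CPM in controls and 13.2, 11.9 and 12.1 CPM with stereotypy (1.10, SE 0.13, adjusted p = 0.00217). Both calls held, with every stereotypy library well above every control in both genes. They belong to 46 monoamine, acetylcholine, peptide and cannabinoid receptors, of which 4 were higher and 0 lower with a median of 0.01; the others called were Adra2b, an alpha-2 adrenergic receptor (5.28, 8.01 and 3.99, then 14.5, 11.7 and 14.2 CPM; adjusted p = 0.0209), and Adcyap1r1, the receptor of PACAP (0.52, SE 0.13, adjusted p = 0.044), kept in 3 and 1 of the 6 fits.

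Ligand-gated and voltage-gated channels changed in both directions. Of 37 glutamate receptors and auxiliary subunits, the metabotropic receptors Grm8 and Grm7 were higher by 1.44-fold and 1.37-fold. The AMPA receptor auxiliary subunits Cnih3 (28.7, 22.4 and 37.3, then 11.3, 13.5 and 10.3 CPM; adjusted p = 0.03) and Cacng3 (94.7, 127 and 143, then 63.7, 59.8 and 81.7 CPM; adjusted p = 0.021) were lower. Of 26 GABA and glycine synapse genes 2 were lower, Gabra5, the alpha-5 subunit of extrasynaptic GABA-A receptors (26.6, 32.2 and 32.5, then 14.2, 18.7 and 14.1 CPM; adjusted p = 0.0275), and Gabbr1, a GABA-B receptor subunit, by 1.25-fold. None of these 6 calls was kept in all 6 fits that leave out a library. The stereotypy libraries all lay below the controls in 9 of the 37 and 7 of the 26 (9.75% of all genes tested). They all lay above in 5 and 3 (18% of all genes tested).

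Of 67 potassium channel genes 3 were higher and 4 lower. Kcnh1, the channel Eag1, rose from 103, 113 and 114 to 164, 200 and 186 CPM (0.73, SE 0.10, adjusted p = 0.00553), and Kcns2, a silent Kv subunit, from 41.3, 40.5 and 47.6 to 63.6, 64.9 and 70.2 CPM (0.61, SE 0.09, adjusted p = 0.00729); these held. Kcnb2 was higher by 0.70 on the log2 scale. Kcng1, another silent subunit, fell from 79.3, 103 and 95.2 to 58.3, 48.0 and 43.6 CPM (adjusted p = 0.028), Kcnip3, which is also the transcriptional repressor DREAM, from 149, 207 and 170 to 118, 78.7 and 102 CPM (adjusted p = 0.0153), and Kcnq3, an M-current subunit, from 236, 250 and 255 to 171, 156 and 183 CPM (adjusted p = 0.028). Kcnh2, the channel Erg1, was lower by 0.41 on the log2 scale. Kcnip3 was lost without stereotypy replicate 2 only (adjusted p = 0.061), and Kcnb2, Kcng1, Kcnq3 and Kcnh2 were kept in 1 or 2 of the 6 fits. Of 27 sodium and calcium channel genes 1 was higher and 2 were lower. Scn9a was higher by 0.87 and Cacnb2 lower by 0.57 on the log2 scale, kept in 3 and 1 of the 6 fits.

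At the presynaptic side, 6 of 77 vesicle release genes were higher and 2 lower, with a median of 0.00. Sv2c, a vesicle protein of the basal ganglia, rose from 279, 331 and 221 to 516, 569 and 593 CPM (1.03, SE 0.15, adjusted p = 0.0054), and the call held. Unc13b, the priming factor Munc13-2, rose from 23.1, 10.8 and 15.6 to 37.8, 74.6 and 54.4 CPM (1.70, SE 0.29, adjusted p = 0.0106) and was lost without stereotypy replicate 2. Beside Stxbp3, given above, Rab3b, Syt2 and Vamp4 were higher by 0.59 to 0.69 on the log2 scale. The synaptotagmins Syt6 and Syt16 were lower by 1.41-fold and 1.35-fold, and Snap25, the core fusion protein, did not pass (2536, 2136 and 2234, then 2194, 1964 and 1939 CPM; adjusted p = 0.347).

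At the postsynaptic side, 2 of 32 scaffold genes were lower and 1 higher, and 21 of 32 estimates were below 0. Begain, a partner of PSD-95, fell from 115, 149 and 138 to 74.0, 80.6 and 62.2 CPM (-0.88, SE 0.12, adjusted p = 0.00446), and the call held. Dlgap3, or SAPAP3, a striatal scaffold whose loss in mice causes excessive grooming, fell from 559, 675 and 704 to 463, 396 and 421 CPM (-0.59, SE 0.11, adjusted p = 0.0133). The groups of Dlgap3 did not overlap, and the call was lost without stereotypy replicate 2 or 3 (adjusted p up to 0.076). Homer3 rose from 1.31, 1.90 and 1.10 to 3.65, 2.76 and 3.43 CPM (adjusted p = 0.0303), a call kept in 1 of the 6 fits. Dlg4, PSD-95 itself, did not pass (adjusted p = 0.124).

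Among 96 formins, small GTPase regulators and actin genes 6 were higher and, beside Fmnl1, 0 lower (3.71% and 1.59% of all genes tested). Pacsin2, an endocytic adaptor that bends membranes, rose from 65.7, 59.2 and 55.0 to 121, 113 and 113 CPM (0.94, SE 0.09, adjusted p = 6.46e-04), and the call held. Tiam1, a Rac activator that binds TrkB, rose from 70.1, 108 and 94.9 to 134, 142 and 131 CPM (0.59, SE 0.14, adjusted p = 0.036). The neurofilament genes Nefl (698, 520 and 634, then 1144, 1039 and 993 CPM; 0.79, SE 0.12, adjusted p = 0.00839) and Nefm (796, 603 and 718, then 1363, 1042 and 940 CPM; 0.65, SE 0.15, adjusted p = 0.0368) were both higher. That of Nefl held, and Nefm was called in 1 of the 6 fits, as Tiam1 was in 2.

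Cadherins and protocadherins gave 6 higher and 0 lower calls among 87, with 67 estimates above 0 and a median of 0.24. Over all genes tested 3.71% were called higher and 1.59% lower. In the fit to the 6 libraries alone, and in each fit without a stereotypy replicate, 0 of the 87 were called. In 21 of the 87 every stereotypy library was above every control, as in 18% of all genes tested. The largest of those called were Fat4 (3.23, 1.58 and 1.53, then 6.01, 5.14 and 4.21 CPM; adjusted p = 0.0316) and its partner Dchs1 (5.45, 12.2 and 8.89, then 16.3, 21.4 and 15 CPM; adjusted p = 0.0464), which form a pair of giant cadherins, and the clustered protocadherin Pcdhb11 (5.58, 3.56 and 5.12, then 7.27, 9.77 and 9.85 CPM; adjusted p = 0.0396). Each was called in at most 1 of the 6 fits that leave out a library. Clustered protocadherins share sequence, so their separate counts are uncertain. Of 59 synaptic adhesion organizers Slitrk1, which promotes synapse formation, was higher (49.0, 31.2 and 49.7, then 70.4, 78.8 and 79.6 CPM; adjusted p = 0.0294), and Cadm3 and Flrt1 were lower; Cadm3 was lost only without stereotypy replicate 2, and the others were kept in 3 and 0 of the 6 fits.

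Extracellular signals other than neurotrophins included a fall of the activin antagonist and rises of receptors of the same family. Fst, follistatin, had 9.17, 9.31 and 13.2 CPM in controls and 1.90, 1.77 and 2.73 CPM with stereotypy (-1.88, SE 0.19, adjusted p = 7.28e-04). Acvr1c, the receptor ALK7, rose from 128, 71.3 and 98.5 to 214, 203 and 239 CPM (1.17, SE 0.17, adjusted p = 0.0054). Both calls held, with no overlap of the groups. Of 39 genes of the TGF-beta superfamily 5 were higher and 1 lower, with a median of 0.13; the other 4 higher genes were Gdf11, Fstl5, Tgfbr1 and Fstl1, with log2 changes of 0.52 to 0.90, each of which was lost without at least 1 library.

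Wnt pathway genes were called 3 times higher and 3 times lower among 39. Tpbg, a membrane inhibitor of Wnt signalling also called 5T4, rose from 28.9, 45.4 and 33.1 to 104, 109 and 89.4 CPM (1.49, SE 0.15, adjusted p = 9.23e-04), and the call held. Dkk3, a secreted relative of the Dickkopf Wnt antagonists, fell from 86.2, 48.0 and 148 to 35.9, 23.9 and 20.8 CPM (-1.66, SE 0.41, adjusted p = 0.0442), with controls far apart and a call kept in 1 of the 6 fits. The ligands Wnt4 (10.3, 5.80 and 11.7, then 3.37, 3.66 and 2.51 CPM; adjusted p = 0.0253) and Wnt2 (8.84, 13.3 and 13.4, then 4.26, 5.98 and 6.94 CPM; adjusted p = 0.0256) were lower, and the Wnt amplifier Rspo1 (2.44, 0.764 and 0.705, then 6.34, 3.50 and 8.45 CPM; adjusted p = 0.0216) was higher; these 3 were kept in 1 or 2 of the 6 fits. Of 12 tested chemokines and receptors Cxcl14 and Ccr6 were higher and Ccl17 lower. The calls of Ccr6 and Ccl17 were kept in 1 and 2 of the 6 fits.

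A few genes were near 0 in the controls and higher with stereotypy. Ceacam10, Tnni3, Ikzf2 and Cpt1a were below 1 CPM in all 3 controls and so were tested only through the stereotypy libraries in which they were high; such genes had to differ, and their calls are given as a description. The same held for Dusp4 and Ccl17 in the opposite direction, and in all for 21 of the higher and 5 of the lower calls. Ceacam10, an adhesion protein of the carcinoembryonic antigen family, had 0.274, 0.424 and 0.153 CPM in controls and 9.85, 11.1 and 7.12 CPM with stereotypy (log2 change 3.0, SE 0.20, adjusted p = 6.33e-05), the largest rise of any gene tested, and the call held; it lies under the level set for naming genes and was chosen after its values were seen. Tnni3, cardiac troponin I, had 0.958, 0.849 and 0.491 CPM in controls and 10.03, 8.90 and 6.57 CPM with stereotypy (2.42, SE 0.28, adjusted p = 0.00184), and this held as well. The zero limit of 3 reads is 0.0821 to 0.111 CPM per library, so both genes were detected in the controls. Of 14 muscle-type contractile genes 2 were higher and 2 lower: beside Tnni3 and Tagln, Tnnt2 rose (3.28, 4.87 and 2.79, then 8.13, 9.03 and 6.01 CPM; adjusted p = 0.0301) and Tpm1 fell by 1.25-fold, calls kept in 2 and 1 of the 6 fits.

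Fatty acid oxidation genes were called higher in 2 of 26 cases and lower in 0, with 22 estimates above 0 and a median of 0.16. Acadl, the long-chain acyl-CoA dehydrogenase, had 2.98, 3.28 and 2.27 CPM in controls and 12.2, 12.8 and 15.5 CPM with stereotypy (1.92, SE 0.16, adjusted p = 2.95e-04), and the call held. Cpt1a, which admits fatty acids to mitochondria, met the filter only through the stereotypy libraries (0.396 to 0.644 CPM, then 1.40 to 2.25 CPM; adjusted p = 0.0351) and was called in 0 of the 6 fits. Both genes are also expressed by glia; the part of glial RNA was not tested.

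Glial and vascular marker lists had medians above 0, and those of cortical neurons, interneurons and D2 neurons had medians below 0. Of 12 astrocyte markers 6 were higher and 0 lower, with a median of 0.77. Slc1a3, an astrocyte glutamate transporter, had 6.60, 5.71 and 7.11 CPM in controls and 13.9, 20.8 and 13.8 CPM with stereotypy (1.18, SE 0.21, adjusted p = 0.0152). Gja1, connexin 43, rose from 2.82, 2.80 and 3.25 to 7.66, 8.74 and 7.34 CPM (1.17, SE 0.20, adjusted p = 0.0121), and both calls were lost only without stereotypy replicate 2 (adjusted p up to 0.073). Slc1a2, the other main astrocyte transporter, was not called (175.8, 122.9 and 262, then 175, 196 and 165 CPM; log2 change 0.00, SE 0.29). Of 12 oligodendrocyte markers 1 was higher (Aspa; median 0.66), of 6 precursor markers 1 (Gpr17; 0.73), of 11 microglia markers 1 (median 0.31) and of 10 vascular markers 2 (Slco1a4 and Pdgfrb; 1.09), and none was lower. The vascular marker Acta2 was the only one of the listed markers of these 5 classes at 0 in a library. Interneuron markers gave 0 calls by limma among 11 (3 at an unadjusted p under 0.05, 1 lower by edgeR). Their median was -0.28, and 0.20 without control replicate 3, with Sst as the most abundant at 185, 137 and 232 CPM, then 112, 174 and 93.3 CPM.

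**Figure D4:**
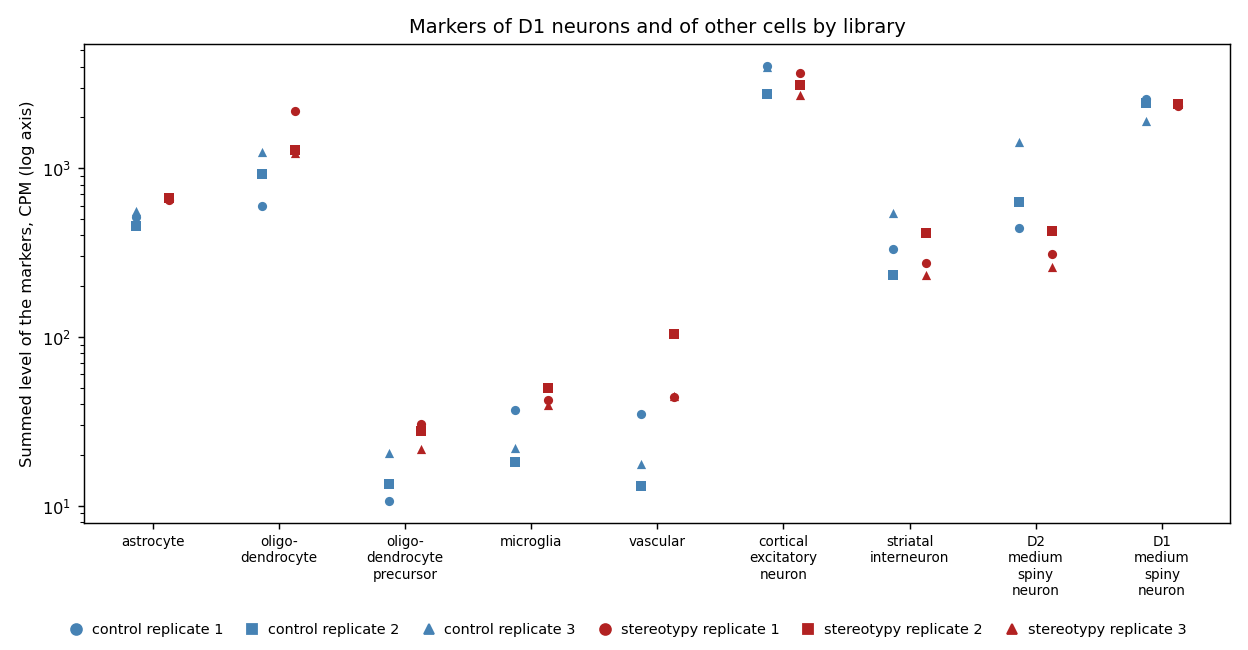
Summed CPM of the listed markers of each cell type, on a log axis, is shown for each library, blue for controls and red for stereotypy, with marker shapes for replicates. The red points lie above the blue for astrocytes, oligodendrocyte precursors, microglia and vascular cells and below for D2 neurons (259.0 to 424.5 against 443.5 to 1434 CPM), and they overlap for oligodendrocytes, cortical neurons, interneurons and D1 neurons.

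The region around Ntrk2 was examined because alleles linked to a floxed gene can differ from the background strain. Within 5 Mb on chromosome 13, 71 other genes were tested, of which 3 were higher and 1 lower (5.63%, close to the 5.3% of all genes), with a median log2 change of 0.02. The 4 were Cxcl14, Ddx46, an RNA helicase (69.8, 70.2 and 66.0, then 94.1, 98.8 and 97.3 CPM), 1700014D04Rik, and Prr7, a postsynaptic adaptor (86.0, 107 and 86.6, then 69.9, 63.1 and 60.4 CPM). Over the whole of chromosome 13, 41 of 478 genes were called (8.58%), the highest share of any chromosome, against 6.81% on chromosome 3, the next, and 3.77% to 6.75% on the others. The part of linked alleles in these calls was not tested.

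The most abundant genes called were lower by less than 2-fold and include several regulators of small GTPases and of the postsynapse. Fbxl16, an F-box protein, fell from 1747, 2391 and 1868 to 1139, 1023 and 1149 CPM (-0.85, SE 0.12, adjusted p = 0.00566), and the call held. Ngef, the GTPase activator ephexin 1, fell from 1314, 1525 and 1319 to 997, 994 and 998 CPM (-0.47, SE 0.10, adjusted p = 0.0303), and Rap1gap, which turns off Rap1, from 688, 1036 and 704 to 542, 540 and 535 CPM (-0.56, SE 0.14, adjusted p = 0.0441). In both, the 3 stereotypy libraries differed by little, control replicate 2 was the highest, and the calls were kept in 1 and 3 of the 6 fits. Pnmal2, a Ma antigen family gene, rose from 546, 916 and 556 to 1064, 1297 and 1077 CPM (0.80, SE 0.19, adjusted p = 0.0349), a call kept in 1 of the 6 fits.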

How the data were processed

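The authors deposited 1 table per library of CPM (reads of a gene scaled to a fixed library total). TopHat and the build GRCm38 are named in the submitters' processing notes; which program counted reads, and whether by strand, is not given in the sources used here, so overlapping and antisense genes can share reads. In every library 100% of values were whole multiples of 1 read within 0.1 reads, so the count of reads per gene was recovered from the deposited CPM. Of the identifiers, 47310 (99.12%) matched GENCODE M21. Replicates differed by at least 19.7 in chi-square per degree of freedom, so no library was counted as a copy of another; whether replicates are separate animals is not stated beyond the labels, and p-values measure the spread between these libraries.

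Genes at 1 CPM or more in 3 or more of the 6 libraries were tested with limma 3.58.1 (R 4.3.3), two-sided, on log2(CPM + 1); on this scale the change of a low gene is understated. The 3 libraries of the TrkB-deleted group without stereotypy entered only the estimate of the spread (6 residual degrees of freedom). Lists are described by counts and medians, and the counts are to be read beside the 3.71% of all genes called higher and 1.59% called lower. Alternatives were other pseudocounts, filters and scalings, covariates, leaving out each library, a replicate block, and edgeR 4.0.16 and DESeq2 1.42.0 on recovered reads. The fits were tested on simulated data. The 15 largest changes and 6 most abundant calls per direction were named, and of each list up to 3 members per direction that passed and 2 that did not; genes outside this rule (among them Bdnf, Ntrk3, Dusp6, Arc, Slc1a2, Ceacam10, Stxbp3-ps and further list members) were chosen after their values were seen. The comparison, lists and genes were chosen with earlier results of these data known. A few genes that the rule picked are not reported here.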

Additional observations from a re-analysis of the deposited data

How the results depend on the processing

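Of the genes tested 5.3% were called, 500 higher and 214 lower; leaving out 1 library gave 0.921% to 4.86% (78 to 431 higher, 46 to 223 lower). No filter on low genes gave 1.37% (250 higher, 98 lower), the 6 libraries alone 2.42% (218 and 108), the glial and vascular covariate 0.0371% (2 and 3) and DESeq2 11.3% (719 higher, 796 lower). Lower calls also moved under median-of-ratios rescaling (346), array weights (338), removal of the GC and length trend (331) and edgeR (328), where higher calls numbered 332; edgeR called 660 genes in all. For the changes in number the cause was not tested, save that fewer libraries or residual degrees of freedom enter some fits. Ntrk2 was lower past the threshold in every alternative, with log2 changes of -3.43 to -3.12 as single libraries were left out.

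Some genes that were not called changed sign. Slc1a2 (0.00) was -0.00 with a pseudocount of 4, -0.05 after median-of-ratios rescaling, -0.03 with array weights, -0.22 without the GC and length trend, -0.12 with edgeR and DESeq2, -1.08 with the glial covariate and -0.27 to 0.28 as libraries were left out. Arc (-0.25) was 0.53 with the covariate of other neurons and -0.77 to 0.70 as libraries were left out, and Ddx3y -2.57 to 0.17. Drd1 was -0.03 with the covariate of other neurons, and Ntrk3 was 0.06 and Sox2 -0.14 with the glial one.

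Whether the replicate numbers pair the libraries is not given in the labels. The correlations of same-numbered deviations were 0.172, -0.08 and 0.058, and those of differently numbered ones ran from -0.23 to 0.175. With the replicate number as a block, 930 genes were called (630 higher, 300 lower). Depth limits low genes, since 3 reads are 0.0821 to 0.111 CPM.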

Other observations

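Of 7 tested mitochondrially encoded mRNAs 2 were higher, all 7 had an estimate above 0 (median 1.05) and all 7 an unadjusted p under 0.05. Without control replicate 1, 7 were called, and 0 were without control replicate 2 or 3 or stereotypy replicate 1 or 2. mt-Co1, a subunit of cytochrome oxidase, had 480, 309 and 274 CPM in controls and 792, 743 and 542 CPM with stereotypy (log2 change 0.99, SE 0.22, adjusted p = 0.0332), and mt-Nd5, of complex I, had 209, 102 and 81.6 CPM, then 326, 374 and 262 CPM (1.40, SE 0.30, adjusted p = 0.0298), calls kept in 2 and 1 of the 6 fits that leave out a library. Of 74 nuclear-encoded respiratory chain subunits 0 passed in limma (7 at an unadjusted p under 0.05, 1 lower by edgeR; median -0.05). Of 72 cytosolic ribosomal protein genes 2 were higher, Rps19 and Rps4x (median 0.15), and of 63 translation factors 0 passed in limma (7 at an unadjusted p under 0.05, 0 by edgeR; median 0.07).

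Cholesterol and fatty acid synthesis genes gave 2 higher calls among 34. Dhcr7, the last enzyme of cholesterol synthesis, rose from 23.4, 21.6 and 25.7 to 42.4, 53.6 and 35.8 CPM (0.86, SE 0.14, adjusted p = 0.0091), and Elovl5, a fatty acid elongase, from 20.8, 18.1 and 23.2 to 34.4, 40.0 and 29.7 CPM (0.72, SE 0.13, adjusted p = 0.0152); the first call held in every fit that leaves out a library and the second was lost without stereotypy replicate 2. Of 61 chaperone genes 1 was higher, Dnajb4, a call kept in 2 of the 6 fits that leave out a library. Of 10 nuclear-retained RNAs 1 was lower, Pantr1 (33.0, 28.5 and 32.2, then 23.7, 21.9 and 22.8 CPM; adjusted p = 0.0375), while 8 estimates were above 0. Among non-coding RNAs Sox2ot, which overlaps the gene Sox2, rose from 4.63, 3.68 and 5.70 to 14.4, 9.51 and 9.26 CPM (1.08, SE 0.20, adjusted p = 0.0152), and the mitochondrial ribosomal RNA mt-Rnr1 from 127, 68 and 85.4 to 205, 221 and 150 CPM (1.06, SE 0.26, adjusted p = 0.0404). Sox2ot was kept in all 6 of those fits, and Pantr1 and mt-Rnr1 in 1 each.

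A few genes outside every list held in all 6 fits that leave out a library and were picked after their values were seen. Oxtr, the oxytocin receptor, had 4.93, 10.8 and 7.17 CPM in controls and 1.68, 2.76 and 1.59 CPM with stereotypy (-1.48, SE 0.24, adjusted p = 0.00941). Abcd2, a peroxisomal fatty acid transporter, had 44.5, 41.7 and 41.2 CPM in controls and 85.6, 96.4 and 80.3 CPM with stereotypy (1.02, SE 0.09, adjusted p = 5.07e-04). Sox11, a transcription factor of immature neurons, rose from 24.6, 20.1 and 22.5 to 43.0, 49.8 and 39.3 CPM (0.94, SE 0.12, adjusted p = 0.00302).

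In the fit with the glial and vascular covariate the 5 genes called were Ntrk2, Plce1, Ceacam10, Camk1 and Sst; the last pair did not pass without the covariate.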
